A study of Rattus norvegicus with 6 samples.

Results

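The genes described here make or serve the nucleolus, the nuclear compartment in which ribosomes are assembled. They were taken by gene symbol from a list of 44 genes of ribosome biogenesis that includes Myc and genes of RNA polymerase I. Of these, 42 were rows of the deposited table of 18930 genes and 41 passed the filter on low counts, which left 11870 genes for testing. Expression of Dkc1 and Mybbp1a was not analysed here. Ddx18, a helicase of large-subunit maturation, had 1 read in all samples together, so its level could not be compared. The cells were NRK-52E, an established line of rat kidney epithelial cells with a wild-type genotype. Transcripts were counted in 3 samples that received vehicle (Control) and in 3 that received streptozotocin (STZ), a DNA-alkylating glucose analog, at 10 mM for 24 h. The sources do not say whether the samples were separate cultures, so the p-values measure the spread between these samples, which may be technical.

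A ribosome begins as a long precursor transcribed from ribosomal DNA by RNA polymerase I. Small nucleolar ribonucleoproteins (snoRNPs) modify this precursor, the small-subunit processome and the large-subunit assembly factors cut and fold it, and helicases and GTPases release the finished parts. MYC is a transcription factor known for driving many of these genes together in growing cells, and proliferating epithelial cells depend on this supply. The libraries were made from polyadenylated RNA, so the mRNAs of the assembly factors were measured and ribosomal RNA was not.

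Total counts were between 10430924 and 15191349 per sample, and the scaling factors were between 0.988 and 1.02. Of 12 epithelial markers, 6 had at least 10 reads in every sample, among them Krt8, Tjp1 and Jup with 4087 or more, whereas Cdh1 had 16 to 35 and Krt18 had 0 to 3. Among the 6 tested, 3 (50%) were higher in STZ, against 25.9% of all genes. Cdh1 alone (16.7%) was lower, against 25.1% of all genes (log2 fold change -0.69, adjusted p = 0.03). The epithelial list summed to 2131 to 2193 CPM (the count scaled to the library size) in Control and 2664 to 2696 in STZ. The fibroblast list summed to 100.4 to 113 in Control and 55.4 to 66.0 in STZ. Of 10 proximal tubule markers, Aqp1 alone reached 10 reads in every sample, with 66 to 167, and it was lower in STZ (log2 fold change -1.25, adjusted p = 9.4e-09), while Lrp2, Slc34a1 and Slc2a2 had 0 to 4. The list summed to 9.97 to 16.9 CPM in Control and 5.79 to 6.75 in STZ. Ptprc, which defines leukocytes, had 0 to 1 reads, although the monocyte gene Cd14 had 1077 to 1792, and the leukocyte list summed to 103 to 106 CPM in Control and 119.8 to 128 in STZ. Pecam1 and Cdh5, which define endothelium, had 0 to 2 reads. Vwf had 6 to 36 and was lower in STZ (log2 fold change -1.15, adjusted p = 0.0013). Kdr of the same list went the other way, with 0 to 2 reads in Control and 6 to 9 in STZ, too few to be tested. The endothelial list summed to 2.66 to 4.22 CPM in Control and 1.63 to 2.37 in STZ. Of 12 proliferation genes, 10 (83.3%) were lower in STZ, against 25.1% of all genes tested. The 12 genes summed to 3039 to 3167 CPM in Control and 2412 to 2431 in STZ. The part of proliferation and of these markers in the values of the nucleolar genes was not tested. In bulk RNA, fewer cells of a kind and less RNA per cell cannot be told apart.

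The nucleolar genes were lower more often than higher after STZ, mostly by small amounts. Of the 41 genes tested, 20 (48.8%) fell and 9 (22%) rose at an adjusted p-value under 0.05, while 12 did not pass. Over all genes tested, 25.1% fell and 25.9% rose. No member changed by more than 1 on the log2 scale, so 0 of 41 met both thresholds of the study. In the edgeR fit made here, which is not the study's own, 3.37% of all genes tested met them. For a list of 41 genes, 0 is near that share. DESeq2 and limma-voom also gave 0 members. The largest change was a fall of 45.3% in Tcof1 and the largest rise was 31.8% in Rrp9. The median log2 fold change was -0.12, against -0.01 over all genes. Without Control replicate 3 the median was -0.06.

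The sample values were close within a group and separate between groups for most members. In 22 members all STZ samples lay below all Control samples, in 10 they lay above, and in 9 the groups overlapped. Over all genes tested the shares were 27.7% below and 28.6% above. The median member stood at -0.02, -0.02 and 0.04 relative to the Control mean on the log2 scale in Control replicates 1, 2 and 3. It stood at -0.12, -0.10 and -0.10 in STZ replicates 1, 2 and 3, below every Control sample. The 41 genes summed to 3833, 3871 and 4010 CPM in the Control replicates and to 3364, 3337 and 3464 CPM in the STZ replicates. All STZ sums were thus below all Control sums. Ncl and Npm1 had by far the most reads of the members and both fell, so these sums rest most on them. The coefficient of variation within a group had a median of 4.35% in Control and 3.77% in STZ, and the widest were 12.9% for Utp18 in Control and 15.1% for Polr1b in STZ.

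**Figure D1:**
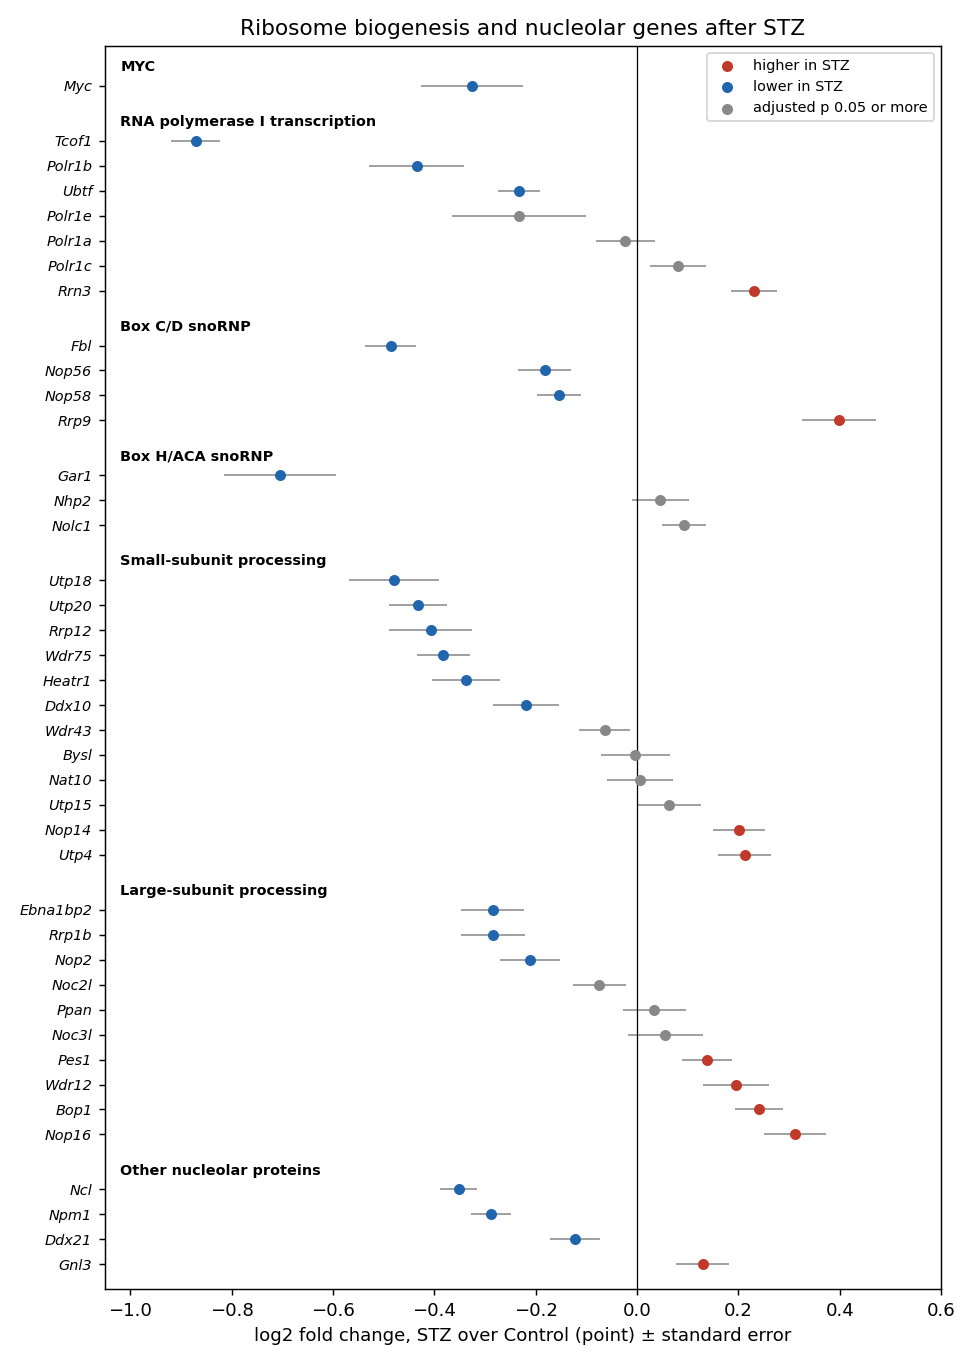
Log2 fold change (x axis, STZ over Control) with its standard error for each of the 41 genes tested (y axis), grouped by role and ordered within each role. Blue points fell, red points rose and grey points did not pass an adjusted p-value of 0.05; Tcof1 lies farthest to the left at -0.87 and Rrp9 farthest to the right at 0.40.

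Promoter sequence was not used to choose these genes, and 16 of 41 promoters held an E-box. Many of the genes are known to be driven by MYC, which binds this element. The share may thus not be independent of the choice. The letters CACGTG spell the canonical E-box, the element bound by MYC and by several other basic helix-loop-helix factors, and they read the same on both strands. In the RefSeq promoter table of the GRCr8 build, which covers 250 bases before and 50 bases after each gene's start, 41 of the 44 members were found. Of these 41 promoters, 16 (39%) held CACGTG, with a 95% Wilson interval of 25.7% to 54.3%. The 16 included Ddx18, Dkc1 and Mybbp1a, whose expression was not tested. Among members tested, 13 promoters held it and 25 did not. The share was 6.42% of all 33469 promoters and 9.86% of the 8681 promoters that belong to genes tested. In the 102 promoters of other ribosome biogenesis genes it was 24.5%, and in the 29 of other MYC targets 31%. With the 250 bases before the start alone, 22% of the member promoters held it, against 5.59% of all promoters, 8.55% of those of genes tested and 14.7% of those of other biogenesis genes. The shares of other MYC targets (31%) and of exosome genes (23.1%) were above that of the members in this window. The 22% of the members includes Ddx18, Dkc1 and Mybbp1a, which hold the element before the start. When CACGCG on either strand was counted as well, a search whose matches can overlap the first, the share was 68.3% of the member promoters, 13.9% of all promoters, 25.6% of those of genes tested, 41.2% of those of other biogenesis genes and 48.3% of those of other MYC targets. Of the 18 matches, 8 lay in the 50 bases after the start and 5 began within the 50 bases before it.

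The stretches before the start are shown for 6 members with the element, 3 that fell and 3 that rose, because the same letters stood before genes of both directions. Capitals mark the E-box, and each stretch is written 5′ to 3′ in the direction of transcription. Utp18 (chr10:79335797-79335892, minus strand), Utp20 (chr7:25102926-25103021, minus strand) and Wdr75 (chr9:55395027-55395122, plus strand) fell. Pes1 (chr14:83074251-83074345, plus strand), Gnl3 (chr16:6219783-6219852, minus strand) and Utp4 (chr19:51702171-51702240, plus strand) rose. All positions are on GRCr8, in the region upstream of the annotated start.
Utp18: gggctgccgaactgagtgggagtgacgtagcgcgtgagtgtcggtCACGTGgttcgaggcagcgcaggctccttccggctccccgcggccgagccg
Utp20: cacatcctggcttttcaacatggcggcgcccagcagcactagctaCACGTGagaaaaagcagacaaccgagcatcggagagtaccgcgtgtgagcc
Wdr75: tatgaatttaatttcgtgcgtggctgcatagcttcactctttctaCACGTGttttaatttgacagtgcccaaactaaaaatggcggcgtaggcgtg
Pes1: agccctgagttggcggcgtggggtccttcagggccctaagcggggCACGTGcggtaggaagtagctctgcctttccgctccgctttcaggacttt
Gnl3: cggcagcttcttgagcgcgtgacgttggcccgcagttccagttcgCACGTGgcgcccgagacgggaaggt
Utp4: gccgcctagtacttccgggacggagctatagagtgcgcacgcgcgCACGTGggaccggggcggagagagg
The E-box began 90, 127 and 160 bases before the start in Utp18, Utp20 and Wdr75, and 50, 25 and 25 bases before it in Pes1, Gnl3 and Utp4. Among members tested that had a promoter entry, 13 held the element. Of these 13 genes, 7 (53.8%) fell and 3 (23.1%) rose, with a median log2 fold change of -0.21. Of the 25 without it, 12 (48%) fell and 5 (20%) rose, with a median of -0.12. Tcof1 and Gar1, which fell most, were among the 25, and so was Rrp9, which rose most. Both directions thus occurred with and without these letters. Over all genes tested, 25.1% fell and 25.9% rose. Among the genes shown that rose, Gnl3 had overlapping groups and lost its call in 9 of 15 refits with other settings or samples. Pes1 lost its call in 3 of these refits.

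**Figure D2:**
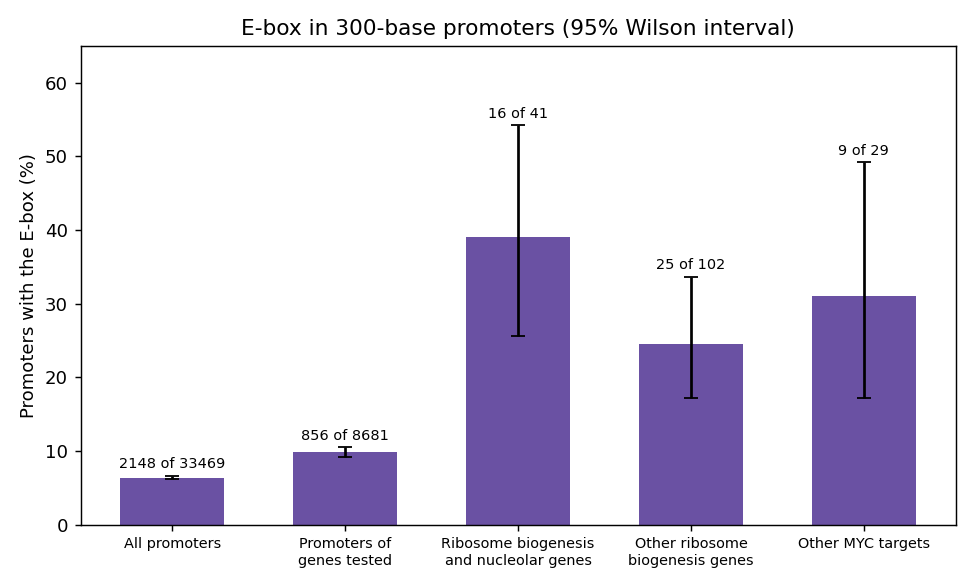
Share of 300-base promoters that hold the E-box (y axis, percent) in each group of genes (x axis), with 95% Wilson intervals as bars and counts above them. The members stand at 39% (16 of 41), against 6.42% of all promoters and 9.86% of promoters of genes tested. The 16 include Ddx18, Dkc1 and Mybbp1a, whose expression was not tested.

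Myc itself was lower after STZ. Control replicates 1, 2 and 3 held 214, 184 and 204 normalized counts of it (reads scaled to equal library size), and STZ replicates 1, 2 and 3 held 158, 156 and 165. All STZ samples lay below all Control samples. Myc fell by 20.2%, or -0.33 on the log2 scale (standard error 0.10, adjusted p = 0.0061), and it passed the threshold in every alternative, with a largest adjusted p of 0.034. The wider MYC network was fixed as a list of 12 genes, among them Mycn, Mycl, Mlx, Mlxip and Mlxipl, and moved in both directions. Of 10 tested, 4 (40%) were higher and 4 (40%) lower, against 25.9% and 25.1% over all genes. Mlx and Mxd4 rose most, by 60% and 59%, while Mxd3 fell by 55.4% and Mnt by 15.6%. Mxd4 and Mnt are repressors that compete with MYC for MAX, and the obligate partner Max, named after its value was seen, rose by 15.2%. The number of lower genes in this list was 1 without STZ replicate 3 and 2 without Control replicate 1, Control replicate 3 or STZ replicate 2. Of 29 other genes known as MYC targets, 18 (62.1%) fell and 4 (13.8%) rose, with a median log2 fold change of -0.23. Over all genes tested, 25.1% fell and 25.9% rose. Tfap4, a transcription factor, fell by 56.9% and Tfrc, the transferrin receptor, fell by 39.2%. Against this direction, Fosl1, an AP-1 subunit, rose from 27.0 to 50.5 normalized counts in Control to 208 to 248 in STZ, and the nucleoside diphosphate kinase gene Nme1 rose by 21.6%.

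The genes of RNA polymerase I transcription differed among themselves. Tcof1 encodes treacle, a nucleolar phosphoprotein that serves RNA polymerase I and is mutated in Treacher Collins syndrome. The Control replicates held 2015, 1874 and 2100.5 normalized counts, and the STZ replicates held 1067, 1168 and 1051. The highest STZ sample lay far below the lowest Control sample. Tcof1 fell by 45.3% (log2 fold change -0.87, standard error 0.05, adjusted p = 3.5e-19), the largest fall and the smallest p among the members. Polr1b, the second-largest subunit of the polymerase, fell by 26%, with 287 to 360.1 normalized counts in Control and 196 to 263 in STZ. Ubtf, the factor that holds ribosomal DNA in an active state, fell by 14.9%, with no overlap between its groups.

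Rrn3, which recruits the polymerase to the promoter, went the other way. It had 1288, 1298 and 1299.7 normalized counts in the Control replicates and 1522, 1459 and 1573 in the STZ replicates. Every STZ sample was above every Control sample, and the Control samples were nearly equal. Rrn3 rose by 17.3% (log2 fold change 0.23, standard error 0.05, adjusted p = 4e-05). The largest subunit Polr1a had a log2 fold change of -0.02 (standard error 0.06), Polr1c, which RNA polymerase III shares, of 0.08 (0.06), and Polr1e, a smaller subunit, of -0.23 (0.13). None of these subunits passed the test. Polr1e also had the fewest reads among the members tested, 86 in its lowest sample, and all its STZ samples lay below all Control samples. Whether more reads would let it pass was not tested. Of 9 other genes of RNA polymerase I transcription tested, 1 (11.1%) rose and 3 (33.3%) fell, against 25.9% and 25.1% over all genes. They included Polr1g, a subunit gene that rose by 43%, and Taf1b, part of the promoter selectivity factor and named after its value was seen, which fell by 27%.

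Among the box C/D snoRNP genes, the core proteins fell and the U3-specific protein rose. Fbl encodes fibrillarin, the methyltransferase of these particles, and had 1272, 1296 and 1258 normalized counts in the Control replicates against 870.4, 879 and 976 in the STZ replicates. The groups were well apart. Fbl fell by 28.6% (log2 fold change -0.49, standard error 0.05, adjusted p = 6.4e-11). Its core partners Nop56 and Nop58 fell less, by 11.9% and 10.1%, also without overlap between the groups. Rrp9 binds the U3 small nucleolar RNA, which guides the first cuts of the precursor. It had 333, 310.1 and 322 normalized counts in the Control replicates and 406, 415 and 448 in the STZ replicates. All STZ samples were higher, and Rrp9 rose by 31.8% (log2 fold change 0.40, standard error 0.07, adjusted p = 1.3e-05). In GRCr8 the span of Rrp9 overlaps Parp3, and no source says whether counting used strand, so reads of the overlapping pair may not be fully separated. Nop56 overlaps Idh3b in the same way.

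The box H/ACA particles carry out pseudouridylation. Gar1, a core protein of these particles, had 209, 182 and 203 normalized counts in the Control replicates and 138, 112 and 113 in the STZ replicates. STZ samples were lower throughout, and Gar1 fell by 38.6% (log2 fold change -0.70, standard error 0.11, adjusted p = 9.4e-07). Nhp2, another core protein, stood at 0.05 on the log2 scale (standard error 0.06, adjusted p = 0.52). Nolc1, a chaperone of both snoRNP classes, stood at 0.09 (standard error 0.04, adjusted p = 0.076), which became 0.14 and passed the test without Control replicate 3 (adjusted p = 0.012). Of 8 further snoRNP genes, 6 (75%) fell and 1 (12.5%) rose, against 25.1% and 25.9% over all genes. They included the last core protein Nop10, which fell by 15.8%, the H/ACA assembly factor Shq1, which fell by 35.9%, the snoRNP assembly ATPases Ruvbl1 and Ruvbl2, at log2 fold changes of -0.39 and -0.34, and Naf1, which rose at 0.33. These genes other than Shq1 were named after their values were seen.

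**Figure D3:**
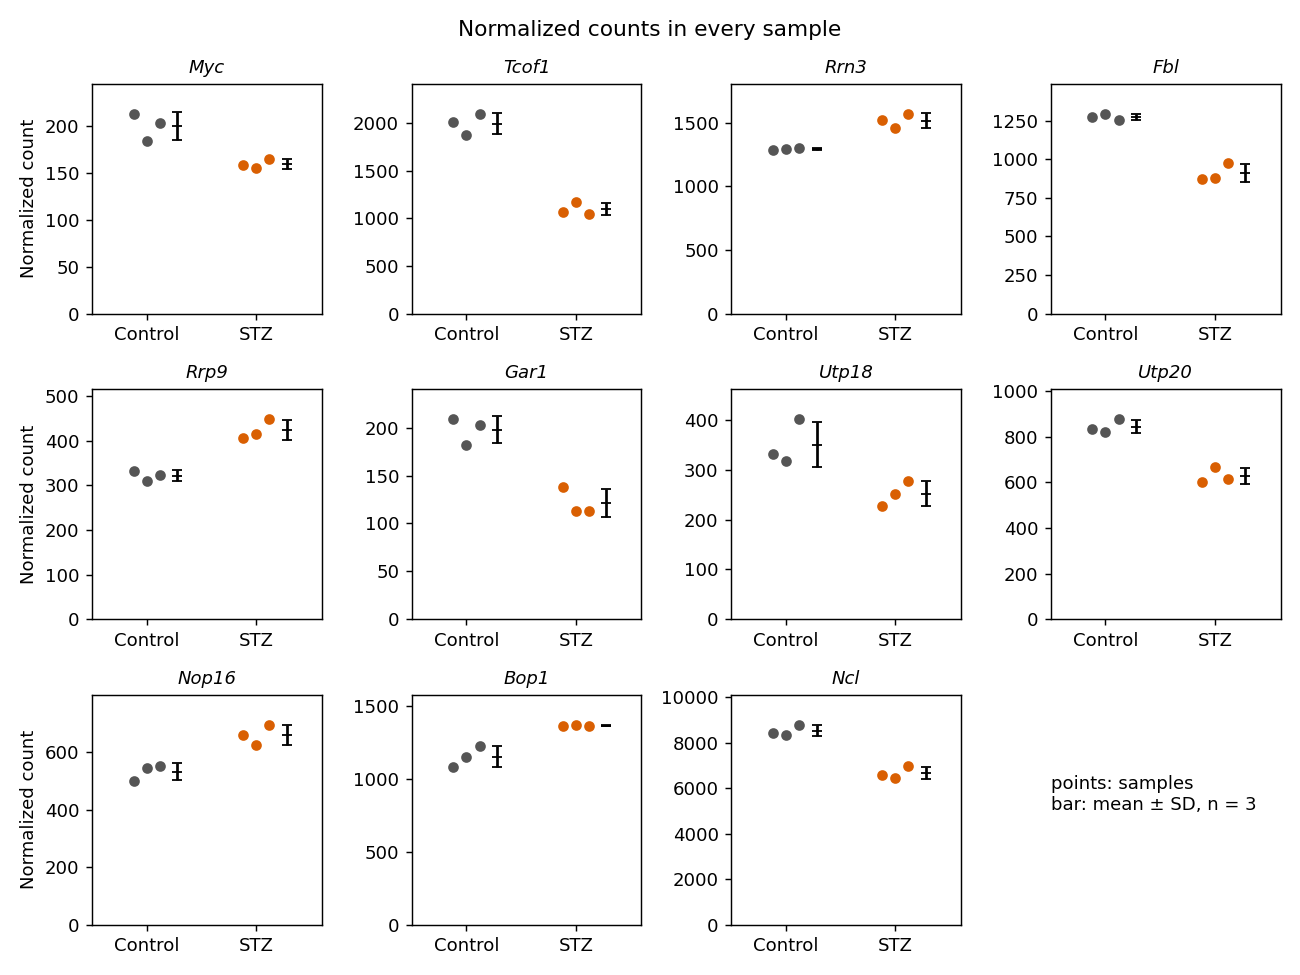
Normalized counts (y axis, starting at 0) of 11 members in each Control and STZ sample (x axis), with the mean and SD of 3 samples beside the points. In each panel the groups do not overlap; Rrn3, Rrp9, Nop16 and Bop1 are higher in STZ and the other 7 are lower.

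Small-subunit genes fell in 6 of 12 cases (50%) and rose in 2 (16.7%), against 25.1% and 25.9% over all genes. Utp18, a protein of the small-subunit processome, had 331, 318 and 402 normalized counts in the Control replicates and 227, 251 and 278 in the STZ replicates. Control replicate 3 was the highest, and the groups did not overlap. Utp18 fell by 28.3% (log2 fold change -0.48, standard error 0.09, adjusted p = 1.5e-05). Utp20, a large scaffold protein of the same particle, had 833, 822 and 877 normalized counts in the Control replicates and 603, 667 and 614 in the STZ replicates. It fell by 25.9% (log2 fold change -0.43, standard error 0.06, adjusted p = 1.8e-08), again with all STZ samples lower. Rrp12, which serves export of the precursor particle, fell by 24.6%, and the helicase gene Ddx10 fell by 14.1%. The span of Utp18 overlaps Mbtd1 in GRCr8 and that of Utp4 overlaps Chtf8 and Derpc.

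A subcomplex that binds the nascent precursor first holds Utp4, Utp15, Wdr43, Wdr75 and Heatr1, and its genes did not move as one. Wdr75 fell by 23.3%, from 887 to 917 normalized counts in Control to 672 to 708 in STZ. Heatr1 fell by 20.9%, from 505 to 572 in Control to 406 to 453 in STZ. Utp4 rose by 15.9%, from 783 to 865 in Control to 958 to 986 in STZ. The groups were separate in each of these genes. Wdr43 had a log2 fold change of -0.06 and Utp15 of 0.06, neither past the test and both with overlapping groups. Nop14, a processome protein, rose by 15% without overlap. Bysl, needed for a late small-subunit precursor, had a log2 fold change of -0.00 (standard error 0.07), and the rRNA acetyltransferase gene Nat10 had one of 0.01 (standard error 0.06). Their sign changed with the scaling or the samples used, and neither passed the test under any setting.

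The large-subunit genes moved in both directions, with 4 (40%) higher and 3 (30%) lower of 10 tested, against 25.9% and 25.1% over all genes. Nop16, a nucleolar protein of large-subunit precursors, had 498, 546 and 552 normalized counts in the Control replicates and 659, 624 and 695 in the STZ replicates. The STZ samples were all higher, and Nop16 rose by 24.1% (log2 fold change 0.31, standard error 0.06, adjusted p = 4.4e-05). Pes1, Bop1 and Wdr12 encode the 3 proteins of the PeBoW complex, which processes the precursor of the large subunit, and all 3 rose. Bop1 had 1084, 1155 and 1225 normalized counts in the Control replicates and 1364, 1373 and 1363 in the STZ replicates. Its STZ samples were nearly equal and above the Control samples. Bop1 rose by 18.2% (log2 fold change 0.24, standard error 0.05, adjusted p = 4.8e-05), and its span overlaps Mroh1 and Scx in GRCr8. Wdr12, whose span overlaps Carf, rose by 14.5% (adjusted p = 0.011) and Pes1 by 10.1% (adjusted p = 0.016), without overlap between groups. The call of Pes1 was lost without Control replicate 1 (log2 fold change 0.09, adjusted p = 0.171), without STZ replicate 2 (0.11, adjusted p = 0.0883) and with library size scaling (0.10, adjusted p = 0.0669). That of Wdr12 was lost without STZ replicate 1 (0.16, adjusted p = 0.0642).

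Other large-subunit genes fell or did not pass. Ebna1bp2, which binds the large-subunit precursor, and Rrp1b, a nucleolar partner of a phosphatase, each fell by 17.9%. Nop2, a methyltransferase of the large ribosomal RNA, fell by 13.6%. The groups did not overlap in any of these genes. Noc2l, whose span overlaps Samd11, had a log2 fold change of -0.07, Noc3l of 0.06 and Ppan of 0.03, all with a standard error of 0.05 to 0.07. They serve transport and maturation of the precursor, and none passed the test.

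Of 4 genes for other nucleolar proteins, the mRNAs of Ncl, Npm1 and Ddx21 fell and that of Gnl3 rose. Ncl encodes nucleolin, an RNA-binding protein of the precursor, and had 8412, 8349.9 and 8795 normalized counts in the Control replicates against 6580.3, 6464 and 6974 in the STZ replicates. The groups were far apart relative to their spread. Ncl fell by 21.7% (log2 fold change -0.35, standard error 0.04, adjusted p = 8.5e-11). Npm1 encodes nucleophosmin, a chaperone that forms the outer layer of the nucleolus, and fell by 18.1%, from 7875 to 8888 in Control to 6790.3 to 7237 in STZ. Npm1 has processed copies elsewhere in mammalian genomes, so its count of uniquely mapped reads is uncertain. Ddx21, a helicase of transcription and processing, and Gnl3, the GTPase nucleostemin, were near the threshold. Ddx21 had a log2 fold change of -0.12 (adjusted p = 0.038) and lost the call without Control replicate 3 (-0.06, adjusted p = 0.385) and without STZ replicates 1, 2 or 3 (adjusted p of 0.087, 0.0577 and 0.112). It also lost it with DESeq2 (adjusted p = 0.101) and with equal depth (0.068). Gnl3, whose span overlaps Pbrm1, had a log2 fold change of 0.13 (adjusted p = 0.038) with overlapping groups. Its call was lost in 9 of 15 alternatives, among them without Control replicates 1 or 3 (adjusted p of 0.0832 and 0.206) and without STZ replicates 1 or 3 (0.0875 and 0.143).

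Several of these genes carry small nucleolar RNAs in their introns. In GRCr8, the spans of 6 of the 41 members tested (14.6%) held annotated snoRNA genes, against 277 of 10462 genes tested that were found in the annotation (2.65%). They were Ncl, Nop56, Nop58, Gnl3, Wdr43 and Ppan, with 2 to 5 snoRNA genes each. Of these hosts, Ncl, Nop56 and Nop58 fell, Gnl3 rose, and Wdr43 and Ppan did not pass. Mature snoRNAs are not polyadenylated. The table's 113 named snoRNA rows held at most 28 reads in a sample and together 0.0031% to 0.0037% of all counts. Of these, 10 passed the filter on low counts, and whether snoRNAs moved with their hosts was not tested.

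**Figure D4:**
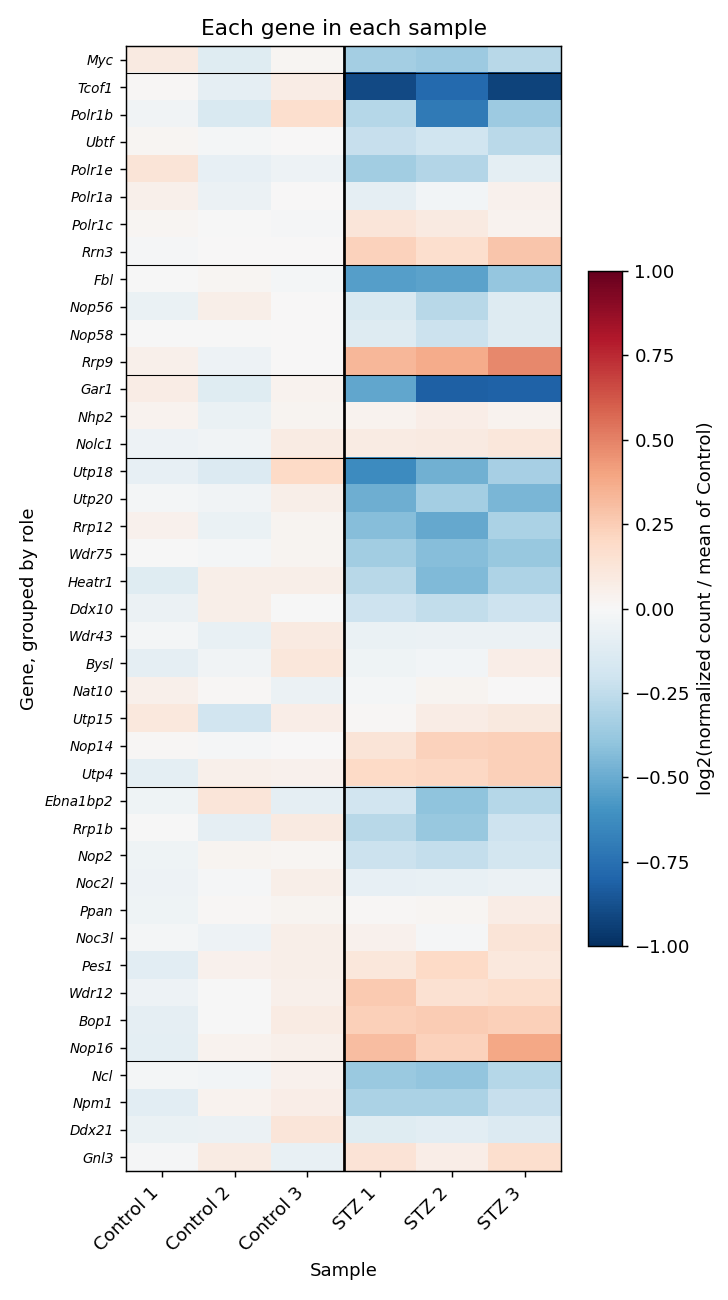
Log2 ratio of each normalized count to the mean of the Control samples (colour, blue lower and red higher) for the 41 genes tested (rows, grouped by role) in the 6 samples (columns). Tcof1, Gar1 and Fbl are blue and Rrp9 and Nop16 are red in each STZ sample, whereas Bysl, Nat10 and Ppan stay near 0.

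Beyond the members, a list of 116 further ribosome biogenesis genes was examined. Of 110 tested, 30 (27.3%) fell and 19 (17.3%) rose, and the median log2 fold change was -0.0119, against -0.0055 over all genes. Without STZ replicate 3 these medians were -0.0361 and -0.0036. The share that fell is near the 25.1% of all genes, and that of the members was 48.8%. The 2 largest falls were in Shq1 and in Npm3, a relative of nucleophosmin (32%). Mak16 and Polr1g had the 2 largest rises, and Mak16, a large-subunit factor, went from 420.3 to 456 normalized counts in Control to 621 to 662 in STZ. By role, 11 of 43 small-subunit genes fell and 10 rose, and 8 of 46 large-subunit genes fell and 7 rose.

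Genes of neighbouring machineries are given beside the 25.1% that fell and the 25.9% that rose over all genes, and differences between the lists were not tested. Of 15 genes of the exosome and of nuclear RNA decay, which trim the precursor and destroy its spacers, 10 (66.7%) fell and 1 rose. Exosc5 fell by 41.3% and Exosc8 by 34%, and the rise was in the helicase gene Mtrex at 7.8%. That single rise was 0 without Control replicate 1, Control replicate 2 or STZ replicate 3, 3 without Control replicate 3 and 2 without STZ replicate 2. Of 19 genes of RNA polymerase III, which makes 5S ribosomal RNA and transfer RNA, 6 fell and 3 rose, led by falls of 23.6% in Polr3g and 21.6% in Polr3b and by rises of 28.5% in Brf2 and 14.3% in Gtf3c1. With library size scaling 9 fell and 2 rose. Of 11 RNA polymerase II subunit genes, 2 fell and 3 rose, and with library size scaling 4 fell and 2 rose. They included Polr2e, which fell by 17%, and Polr2k, which rose by 25.5%. Of 10 genes listed for the 5S ribonucleoprotein and for surveillance, Rrs1, Rpf2 and Nop53 are also in the list of further biogenesis genes. Among the 10, 4 rose and 3 fell. Without STZ replicate 1, 1 fell. The ribosomal proteins of this particle moved apart, with a fall of 11.8% in Rpl5 and a rise of 9.57% in Rpl11, which was named after its value was seen. The largest rise in this list was 46.6% in Rnf10, whose part in nucleolar surveillance was not examined.

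**Figure D5:**
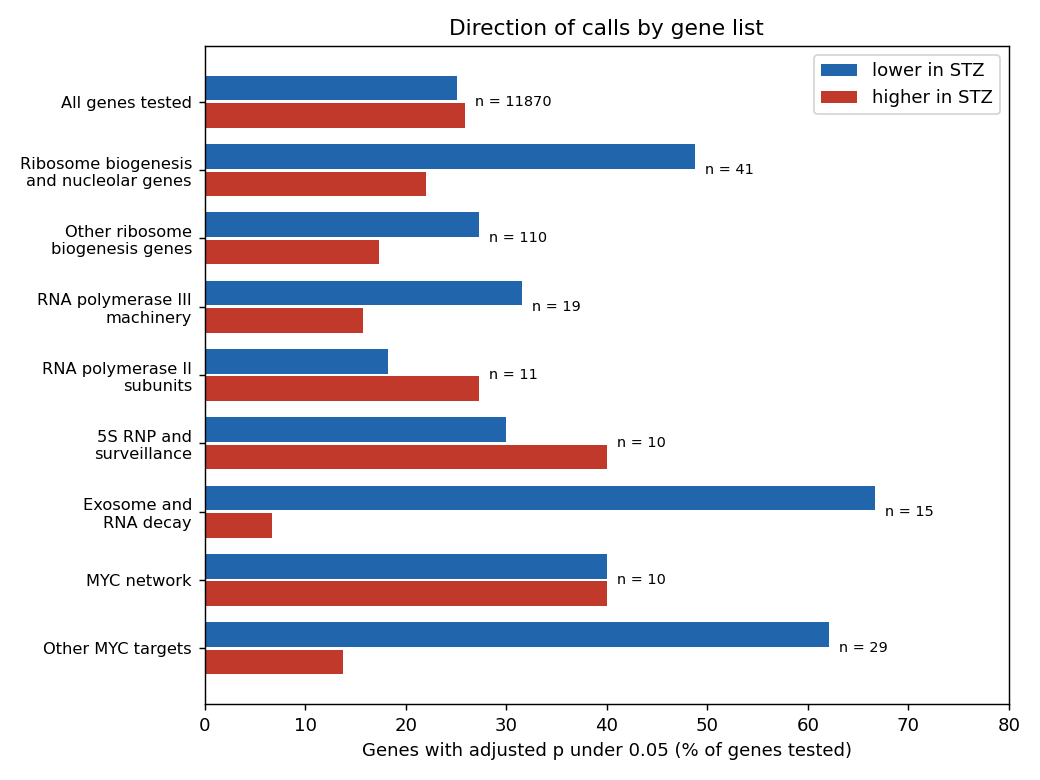
Percent of tested genes (x axis) that fell (blue) or rose (red) at an adjusted p-value under 0.05 in each gene list (y axis), with the number tested beside the bars. Falls make up 48.8% of the members, 62.1% of the other MYC targets and 66.7% of the exosome genes, against 25.1% of all genes tested.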

How the data were processed

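Per the labels and the methods of the study, the authors prepared TruSeq stranded mRNA libraries from NRK-52E cells, used STAR 2.7.10a on the Rnor6 build for single-end reads, and deposited raw counts of uniquely mapped reads per gene from featureCounts. The annotation release and strand setting are not given in the sources used here. All 6 columns matched sample titles.

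From these counts, the TMM scaling, filterByExpr filter and quasi-likelihood test of edgeR 4.0.16 (R 4.3.3) were computed over the whole table, with Benjamini-Hochberg adjustment over 11870 genes. A gene fell or rose at an adjusted p-value under 0.05; the study also required an absolute log2 fold change over 1. A normalized count is the count divided by the scaled library size, times the mean scaled size. Percent changes come from the fitted log2 fold change. Steps were run on simulated counts that had fewer changed genes than these data. That run does not check the calls of small changes.

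The members and lists were chosen with earlier results of these data known. Sample values are given for Myc, the smallest p in each role, and the 4 largest rises and falls; other lists name at most 2 rises and 2 falls, except where stated. With 3 samples against 3, an exact two-sided permutation p for 1 gene cannot go below 0.1, so none is given. Alternatives used DESeq2 1.42.0 and limma 3.58.1. Sequences are from RefSeq (GRCr8); intervals cover counting error only. Entries for Myc, Wdr43 and Bop1 were not used. Deviations of log2 normalized counts from the group mean, over 10341 genes, correlated at 0.0317, -0.0393 and 0.1 between same-numbered samples. Between a Control and an STZ sample of unlike number they correlated at -0.12 to 0.0845, so the numbers were not taken as pairs.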

Additional observations from a re-analysis of the deposited data

How the results depend on the processing

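The number of members that fell, 20, was 19 to 20 under all 15 alternatives, and the number that rose, 9, was 7 to 9. The number past both thresholds was 0 under each of them. Of 615 refits of single members, 583 kept direction and call, 19 lost the call (Gnl3, Ddx21, Pes1 and Wdr12), 1 gained it (Nolc1) and 12 changed sign, all in genes that did not pass the test. With library size scaling, Nat10 was at -0.0275 and the median of the members was -0.16. With the upper quartile, these were -0.013 and -0.14. With equal depth, Nat10 was at -0.0267, Bysl at 0.0041 and the median at -0.11, and with no filter the median was -0.10. It was -0.16 to -0.0575 without one replicate, and Bysl was then at -0.0461 to 0.0608, Nat10 at -0.0256 to 0.0288, Polr1a at -0.0593 to 0.0132 and Utp15 at -0.0217 to 0.11. The median of the further biogenesis genes was -0.0454 with library size scaling, -0.0309 with the upper quartile, -0.0269 with equal depth (all samples thinned to the smallest total) and -0.0361 to -0.0076 without one replicate.

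In the smaller lists, the RNA polymerase II subunits had 4 falls with library size scaling and 1 with DESeq2, and the MYC network had 2 falls with no filter, DESeq2 or equal depth and 1 to 3 without one replicate. The 5S and surveillance list had 1 to 3 falls without one replicate. The single rise in the exosome list was 0 with library size scaling, the upper quartile or DESeq2, 2 with a minimum of 10 counts per sample and 0 to 3 without one replicate. Of the member promoters, 22% held the E-box in the bases before the start and 68.3% when CACGCG was counted; more bases or letters give more matches by construction. The cause of the other shifts was not tested. With the replicate block 20 members fell and 9 rose, and the exosome list had 2 rises. With equal depth 19 members fell and 8 rose. Whether more reads would change the calls of the smallest changes, or that of Polr1e, was not tested.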
